A study of Mus musculus with 6 samples.

Results

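The genes described here are the mouse MHC genes and the genes of antigen processing, measured in keratinocytes that carry an oncogenic ras gene, with and without blockade of the interleukin-1 receptor. They were chosen by name, without the use of measured values: every gene name on the array that starts with H2- (H2-Bf and the H2-Ke genes left out), together with B2m, Tap1, Tap2, Tapbp, Psmb8, Psmb9, Psmb10, Psme1, Psme2, Cd74, Ciita, Nlrc5, Erap1 and Cd1d1. This gave 43 genes of the 27573 gene names on the array, measured by 68 probes. Of these, 32 are H2- names and 11 are among the 14 listed genes. Ciita and Erap1 were on the array under older names (C2ta and Arts1) that the name match does not take, and their values are given separately. Nlrc5 was not analysed here.

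Primary keratinocytes came from the epidermis of newborn wild-type mice. All 6 cultures were transduced with v-rasHa, the ras oncogene of Harvey sarcoma virus, at 10 viral particles per cell with Polybrene at 4 ug/ml. The vector is given as an adenovirus, and the preparation also held hair follicle buds. The 3 cultures of one group then received Anakinra, a recombinant form of the natural interleukin-1 receptor antagonist, at 5 ug/ml from 5 h after transduction for 3 days, replaced after 2 days. The 3 cultures of the other group received PBS. No untransduced cells enter the comparison. RNA of each culture was hybridised to 1 single-colour Agilent array. Nothing in the labels tells whether the 3 cultures of a group are separate isolations or mice, and the spread that the p-values rest on may thus be technical. Signal is given as relative signal, the scanner's processed signal divided by the 75th percentile of its array. Changes are log2 differences of Anakinra minus PBS ± SE with 3 arrays per group, and a gene was called when its Benjamini-Hochberg adjusted p over all genes tested (limma) was under 0.05. No level of one probe is compared with that of another, since probes differ in brightness.

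MHC class I molecules carry peptides from inside the cell to its surface, where CD8 T cells read them. The proteasome cuts the peptides, the TAP1/TAP2 transporter moves them into the endoplasmic reticulum, tapasin (Tapbp) holds the empty class I molecule at the transporter, and beta-2 microglobulin (B2m) is its invariant partner. Under interferon or NF-kB signalling many cells replace the catalytic subunits Psmb5, Psmb6 and Psmb7 by the immune subunits Psmb8 (LMP7), Psmb9 (LMP2) and Psmb10 (MECL-1), and add the PA28 cap made of Psme1 and Psme2. MHC class II molecules present peptides from outside the cell and are made mainly by antigen-presenting cells such as the Langerhans cells of the epidermis. Their transcription depends on the coactivator Ciita, and Cd74 (the invariant chain) and the H2-DM molecule govern their loading.

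The cultures expressed keratinocyte genes: all 10 keratinocyte markers were tested, with a summed relative signal of 1430 to 1596 in PBS and 1379 to 1550 in Anakinra. Of 16 leukocyte and Langerhans cell markers 7 were tested and none was called, with Csf1r and Fcer1g lower at unadjusted p = 0.0240 and 0.0382. The summed signal of that list was 4.47 to 5.03 in PBS and 4.36 to 5.03 in Anakinra. None of its markers was below background on every array, and 5 were above it on 1 array only, which was Anakinra replicate 2 for 4 of them. The suprabasal keratins Krt1 (2.35 ± 0.19, adjusted p = 0.0111) and Krt10 (2.40 ± 0.26, adjusted p = 0.0205) rose with Anakinra, as did 2 of 6 fibroblast markers (Col3a1 and Lum), whose list summed to 7.01 to 8.51 in PBS and 8.69 to 9.99 in Anakinra. With slide as a block none of these 4 genes was called (adjusted p from 0.0551 to 0.142), and Dcn of the fibroblast list changed by -0.38 ± 0.07 with the groups apart (adjusted p = 0.0700). The part of such shifts in the results below was not tested. Each slide held arrays of both groups: slide 1 held PBS replicates 2 and 3 and Anakinra replicate 1, and slide 2 the other 3 arrays. Between 55.6% and 86.5% of spots were well above background, the highest share being that of Anakinra replicate 2, and pairs of arrays of one group correlated at 0.995 to 0.997 in PBS and 0.957 to 0.983 in Anakinra. No spot was saturated.

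Start regions are shown for some of the genes named below, so that neighbours can be read side by side. They are Psmb8, the gene with the largest called change, and the stretch that separates the divergent genes Psmb9 and Tap1. H2-K1 is shown for the class I heavy chains, B2m as their light chain and H2-T23 as a class I gene with a smaller change. Of these genes only Psmb8 was called. Entries were matched for 32 of the 43 genes by symbol. Each sequence is from RefSeq (GRCm38.p6), 5′ to 3′ on the strand named; it holds the 250 bases before the gene's annotated start, except the stretch between Psmb9 and Tap1, which is 225 bases long. Capitals mark matches, on either strand, to an NF-kB motif (GGGNNTTNC), an interferon-stimulated response element (ISRE, GAAANNGAA) or a GAS motif (TTCNNNGAA), and in the stretch between Psmb9 and Tap1 to CCAAT. Of 32851 start regions of the same length, 13% held the NF-kB letters, 7.13% the ISRE letters, 7.02% the GAS letters and 33.85% CCAAT. The Psmb8 region (chr17:34197945-34198194, plus strand) held a GAS match that begins 97 bases before the start. The stretch between Psmb9 and Tap1 (chr17:34187331-34187555, plus strand, so that Tap1 starts after its right end and Psmb9 runs leftward from its left end) held CCAAT and none of the other motifs. CCAAT is not particular to it: on either strand it also stood, unmarked below, at 16 bases in H2-K1, 53 in B2m and 52 in H2-T23. Psmb8 held none. H2-K1 (chr17:34000348-34000597, minus strand, the first of its 2 entries) held the NF-kB letters 111 bases before its start, and the same letters stood at 171 bases in H2-D1 and at 133 bases in H2-Q7. B2m (chr2:122147437-122147686, plus strand) held an ISRE match at 139 and an NF-kB match at 125 bases. H2-T23 (chr17:36032702-36032951, minus strand) held an ISRE match at 123 bases. No matches overlapped in the regions printed. Not every gene with a change held a match. Each entry of Psme2, which was called, and the regions of Psme1, Psmb10 and Psmb5 held none of these motifs. A match describes the letters only.
Psmb8: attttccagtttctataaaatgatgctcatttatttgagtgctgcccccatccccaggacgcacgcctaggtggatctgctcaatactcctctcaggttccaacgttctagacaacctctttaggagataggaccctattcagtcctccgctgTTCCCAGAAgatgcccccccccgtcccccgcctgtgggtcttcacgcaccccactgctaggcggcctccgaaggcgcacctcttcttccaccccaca
Between Psmb9 and Tap1: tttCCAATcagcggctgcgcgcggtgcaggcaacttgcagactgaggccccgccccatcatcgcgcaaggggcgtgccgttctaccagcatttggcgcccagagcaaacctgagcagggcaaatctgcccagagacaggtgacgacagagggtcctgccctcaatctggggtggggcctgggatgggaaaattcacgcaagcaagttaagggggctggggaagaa
H2-K1: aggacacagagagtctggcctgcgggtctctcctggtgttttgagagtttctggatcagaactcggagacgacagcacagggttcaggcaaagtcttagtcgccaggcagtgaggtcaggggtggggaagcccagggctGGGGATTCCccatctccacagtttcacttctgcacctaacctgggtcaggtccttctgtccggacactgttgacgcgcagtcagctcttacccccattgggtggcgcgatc
B2m: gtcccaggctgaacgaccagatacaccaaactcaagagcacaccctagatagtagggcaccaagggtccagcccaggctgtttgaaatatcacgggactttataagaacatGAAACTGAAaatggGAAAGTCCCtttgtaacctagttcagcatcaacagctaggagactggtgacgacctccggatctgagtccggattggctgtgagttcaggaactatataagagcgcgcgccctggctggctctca
H2-T23: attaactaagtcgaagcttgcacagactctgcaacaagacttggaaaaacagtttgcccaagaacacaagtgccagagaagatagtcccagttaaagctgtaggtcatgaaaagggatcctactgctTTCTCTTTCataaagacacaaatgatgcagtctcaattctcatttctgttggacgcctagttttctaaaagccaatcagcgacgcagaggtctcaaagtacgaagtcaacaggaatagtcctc

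A gene was tested when its signal stood well above background on every array of PBS, of Anakinra or of both, which 31 of the 43 genes met, and 28 of those were above it on all 6 arrays. With Anakinra 3 of them were lower, Psmb8, H2-Bl and Psme2, and none was higher. Over all 16472 genes tested, 0.801% were called lower, 0.971% higher and 1.77% either way. At an unadjusted p under 0.05, 15 of the 31 were lower and 0 higher, against 7.63% and 8.49% of all genes. All 3 Anakinra arrays lay below all 3 PBS arrays for 16 of the 31 and above them for 0, against 13.8% and 12.5% of all genes. The median change of the 31 genes was -0.29, and that of all genes tested was 0.01. When arrays were scaled on their medians, the median change of all genes moved to -0.32 and that of the members to -0.62. That scaling shifts every gene by the same amount. No member was then called, and 4 changed sign: H2-T22 (to -0.22), H2-M10.2 (to -0.21), H2-DMa (to -0.14) and H2-DMb1 (to -0.10).

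**Figure D1:**
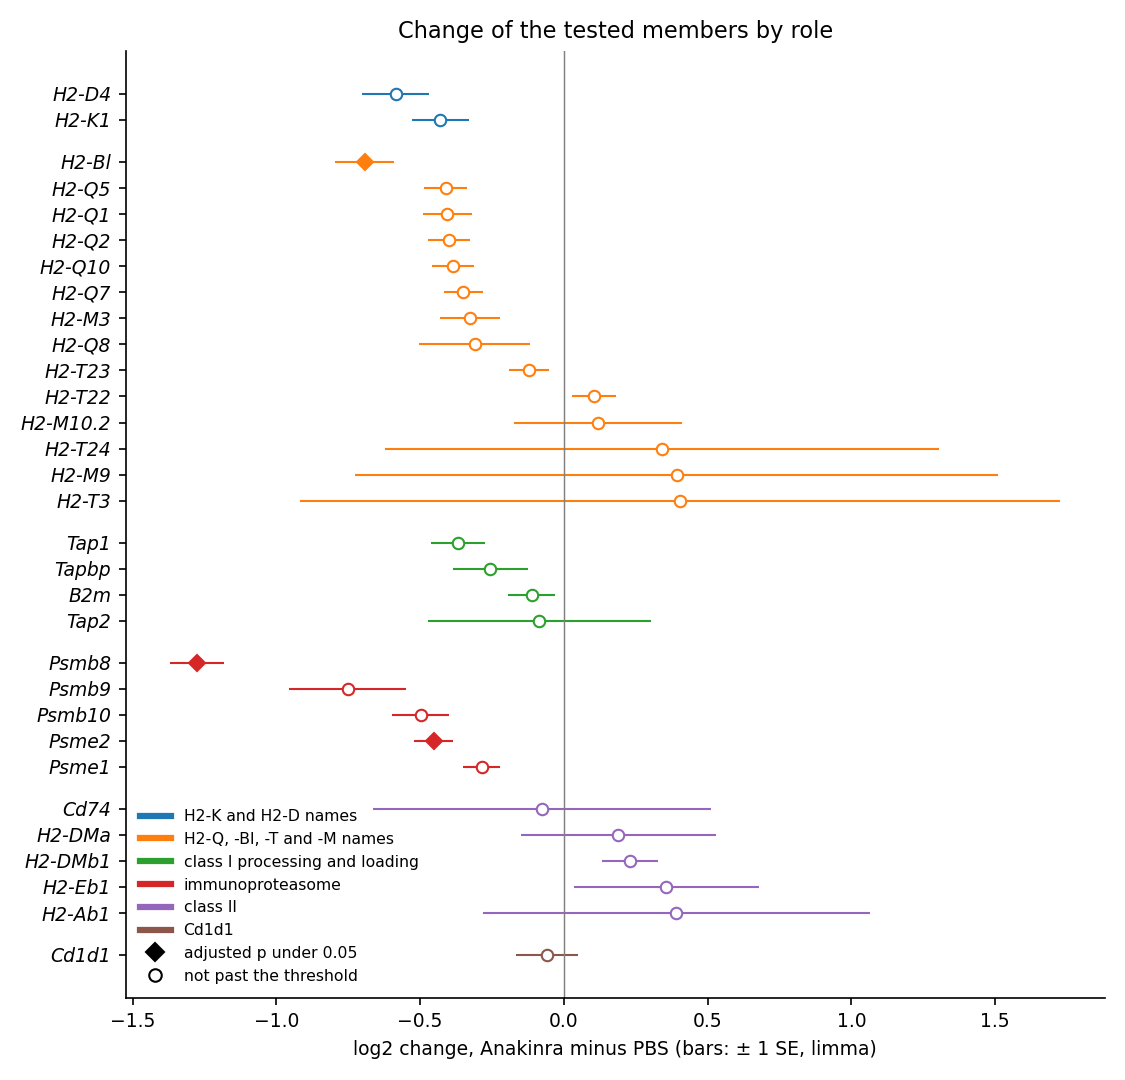
Log2 change (Anakinra minus PBS, horizontal axis) of the 31 tested genes by role; points are limma estimates, bars ± 1 SE, filled diamonds genes with an adjusted p under 0.05. The immunoproteasome and the H2-K, H2-D, H2-Q and H2-Bl names lie to the left of 0. Most class II genes and dim H2-T and H2-M genes spread around or to the right of 0 with wide bars. H2-M3 (-0.33 ± 0.10) to the left and H2-DMb1 (0.23 ± 0.10) to the right have narrower bars.

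The largest called change was in the immunoproteasome. All 5 of its genes were tested and 2 were called lower, against 0.801% of all genes. All 5 had Anakinra arrays below the PBS arrays, against 13.8% of all genes, and their median change was -0.50. Psmb8, the immune counterpart of the chymotrypsin-like subunit Psmb5, had a relative signal of 2.00, 1.86 and 2.18 in PBS and 0.891, 0.777 and 0.824 in Anakinra. Every PBS value was above every Anakinra value, and in these whole cultures less RNA per cell and fewer cells that express a gene cannot be told apart. Psmb8 fell by 1.28 ± 0.09 on the log2 scale, a 2.42-fold decrease (adjusted p = 0.00831). Its change was -1.25 with slide as a block (adjusted p = 0.04996), -1.17 within slide 1 and -1.32 within slide 2. The probe lies at 33811038 to 33811097 on chromosome 17 (mm8). A neighbouring probe of Psmb8 changed by -1.16 ± 0.09 (adjusted p = 0.0132 over all probes). Without PBS replicate 1 or PBS replicate 2 the adjusted p of Psmb8 was 0.0808 and 0.0702.

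Psme2, the beta subunit of the PA28 cap, gave 16.7, 16.3 and 16.3 in PBS and 12.5, 12.2 and 11.3 in Anakinra. The groups did not overlap. The change was -0.45 ± 0.07, or 1.37-fold lower (adjusted p = 0.0465), with -0.38 within slide 1 and -0.51 within slide 2. With slide as a block its adjusted p was 0.156, and it was not called when any single array was left out. Its probe lies at 54541569 to 54541628 on chromosome 14 (mm8), and a second probe of the gene changed by -0.41 ± 0.08.

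Psmb9, the immune counterpart of the caspase-like subunit Psmb6, gave 0.366, 0.324 and 0.402 in PBS and 0.180, 0.287 and 0.194 in Anakinra. The groups were apart, but Anakinra replicate 2 lay nearer the PBS arrays than the other 2. Its change of -0.75 ± 0.20 was not called (adjusted p = 0.169); without Anakinra replicate 2 it was -0.96 and was called (adjusted p = 0.0436). Psmb10, the counterpart of the trypsin-like subunit Psmb7, gave 4.58, 4.26 and 4.55 in PBS and 3.20, 3.49 and 2.81 in Anakinra. That is a change of -0.50 ± 0.10, again apart and not called (adjusted p = 0.0926). Psme1, the alpha subunit of PA28, changed by -0.29 ± 0.06 with the groups apart (adjusted p = 0.113).

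The constitutive proteasome gave other values. All 17 of its listed genes (the alpha and beta subunits, Psme3, Psme4 and the assembly factor Pomp) were tested, and none was called, nor was any at an unadjusted p under 0.05. Their median change was -0.08, with values from -0.17 to 0.14. The 3 subunits that the immune ones replace changed by -0.15 ± 0.10 (Psmb5), -0.13 ± 0.08 (Psmb6) and -0.10 ± 0.10 (Psmb7), each with overlapping groups. Ratios within an array do not depend on its scaling. The log2 ratio of Psmb8 over Psmb5 changed by -1.13 ± 0.14, that of Psmb9 over Psmb6 by -0.62 ± 0.21 and that of Psmb10 over Psmb7 by -0.40 ± 0.08. In each of these pairs the 3 Anakinra arrays lay below the 3 PBS arrays. The exact two-sided permutation p was 0.1 for each, the smallest that 3 arrays against 3 allow, and 0.15 after adjustment over 6 ratios. The pairs were chosen with the changes of these genes known.

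**Figure D2:**
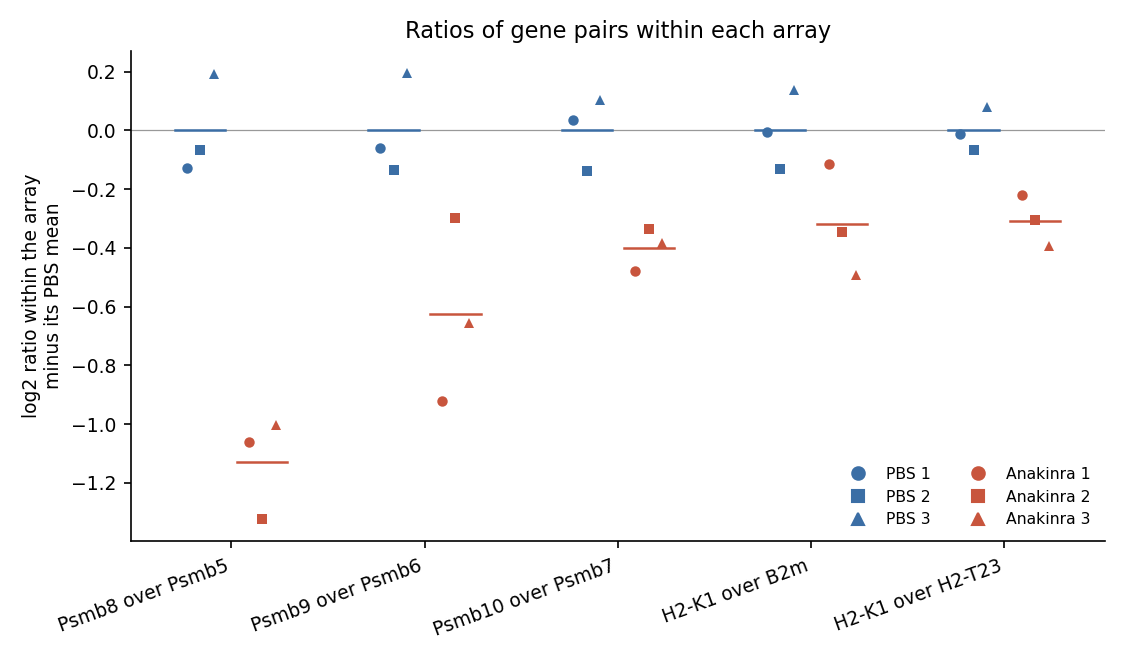
Log2 ratio of 2 genes on the same array, less its mean over the PBS arrays (vertical axis), for 5 pairs; each symbol is 1 array and each line a group mean. The 3 immune over constitutive proteasome ratios are lower on all 3 Anakinra arrays, and those of H2-K1 over B2m overlap.

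Class I heavy chains had negative changes throughout one set of names. All 9 genes with H2-K, H2-D, H2-Q or H2-Bl names were tested and 1 was called lower, against 0.801% of all genes. Of the 9, 8 had Anakinra arrays below the PBS arrays, against 13.8% of all genes, and their median change was -0.41. This set was not among the planned roles and was added later. As planned, the 2 H2-K and H2-D names had a median of -0.51 and 0 calls. The other class I names, H2-T and H2-M included, had 14 tested and 1 called lower. Of those 14, 9 were negative and 5 positive, with a median of -0.32. H2-Bl, a class I gene outside the classical set, gave 3.92, 3.83 and 4.01 in PBS and 2.68, 2.50 and 2.13 in Anakinra. The lowest PBS array was above the highest Anakinra array. The change was -0.69 ± 0.10, or 1.62-fold lower (adjusted p = 0.0472). It was -0.55 within slide 1 and -0.76 within slide 2, its adjusted p with slide as a block was 0.144, and it was not called when any single array was left out. The probe spans 35691549 to 35691795 on chromosome 17 (mm8). The other 2 H2-Bl probes changed by -0.85 ± 0.23 and -0.93 ± 0.18, with the groups apart in both.

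H2-K1 encodes the classical K molecule. Its relative signal was 29.1, 25.2 and 29.3 in PBS and 21.8, 21.3 and 18.9 in Anakinra, with no overlap. The change of -0.43 ± 0.10 was not called (adjusted p = 0.122). The other 2 H2-K1 probes changed by -0.51 ± 0.06 and -0.61 ± 0.08 and were called when every probe was tested by itself (adjusted p = 0.0364 and 0.0484), a setting added after the data were seen. As the mean of its 3 probes H2-K1 changed by -0.52 and was called (adjusted p = 0.0455). In both of these settings the calls of H2-Bl and Psme2 were lost. For H2-Bl the adjusted p was 0.0611 for the probe given above and 0.0888 for the mean of its probes. For the Psme2 probe given above it was 0.0669 over all probes. H2-D4 changed by -0.58 ± 0.12 with the groups apart (adjusted p = 0.0930), and passed the threshold with another background correction (normexp, adjusted p = 0.0484). The H2-D4 probe lies at 35002937 to 35002990 on chromosome 17 (mm8), next to that of H2-Q8 (35003497 to 35003556), and no RefSeq gene was matched to it. The H2-Q5 probe, also without a matched RefSeq gene, lies between those of H2-Bl and H2-T3. Which genes these 2 probes read was not tested. The probe named H2-Q5 gave 33.8, 31.0 and 32.5 in PBS and 25.7, 24.5 and 23.04 in Anakinra, a change of -0.41 ± 0.07 (adjusted p = 0.0753). H2-Q1, H2-Q2, H2-Q7 and H2-Q10 had groups apart and changes between -0.41 and -0.35, none called. H2-Q8 changed by -0.31 ± 0.19 with overlap (adjusted p = 0.512), and by -0.51 without Anakinra replicate 2.

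These heavy chains are close in sequence, and 1 transcript may be read by several of their probes. The design accessions of 4 member probes name more than 1 RefSeq gene: the H2-Q10 probe above names H2-Bl, H2-Q1, H2-Q10 and H2-Q6, the H2-Q1 probe H2-Q1 and H2-Q2, an H2-T22 probe H2-T10 and H2-T22, and an H2-DMb1 probe H2-DMb1 and H2-DMb2. Among 19 probes of the H2-K, H2-D, H2-Q and H2-Bl names, 16 passed the filter and 12 lay above the 75th percentile on all arrays. Of the 16, 14 had Anakinra arrays below PBS arrays, against 12.3% of all 24973 probes. All of the 12 bright probes did, with changes from -0.69 to -0.35 and 2 calls, where 0.501% of all probes were called lower. The brightness cut left out the H2-Q8 probe and an H2-Q10 probe, whose groups overlapped. The share among other probes of like brightness was not computed. LOC547343, a name outside the selection, had 2 probes with the groups apart, both read from the limma fit over all probes. The one whose design accessions name H2-Q2 changed by -0.46 ± 0.08 (adjusted p = 0.0808). The one whose accessions name the classical gene H2-D1 changed by -0.47 ± 0.08 (adjusted p = 0.0863). How many distinct transcripts the 12 probes read was not tested. H2-Q10, a gene known for expression in liver, had 5 probes that disagreed. The probe that stood for it and 1 other (-0.53 ± 0.10) were apart, another changed by 0.02 ± 0.62, and the remaining pair was above background on 1 array or on none. Without the 9 names, 2 of 22 tested members were called, against 0.801% of all genes called lower. The median change of the 22 was -0.08, or -0.35 without Anakinra replicate 2. H2-T3, H2-M9 and H2-T24 are among the 22 and passed the filter only through the PBS arrays.

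Outside that set of names, the H2-T and H2-M genes gave no calls. Of 14 such genes 7 were tested and none was called, and their median was 0.12. At an unadjusted p under 0.05 (limma) 1 was lower, against 7.63% of all genes. Without Anakinra replicate 2, on the same probes, the median of these genes was -0.38 and 5 of 7 were negative. H2-T3 was then at -0.87, H2-M9 at -0.81 and H2-T24 at -0.62. These 3 genes passed the filter only through the PBS arrays, which tilts such values toward negative. No conclusion is drawn from that median or count. H2-T23, which encodes the Qa-1 molecule that presents leader peptides of other class I chains, gave 18.3, 16.4 and 17.3 in PBS and 15.9, 16.4 and 15.5 in Anakinra. The groups were apart by a narrow gap, with a change of -0.12 ± 0.07 (adjusted p = 0.464). H2-T22, a ligand of some gamma-delta T cells, gave 6.56, 6.51 and 6.23 in PBS and 7.14, 6.37 and 7.28 in Anakinra. That is 0.11 ± 0.08 with overlap (adjusted p = 0.576), and its other 2 probes changed by 0.08 and 0.01. H2-M3, which presents formylated peptides, changed by -0.33 ± 0.10 (adjusted p = 0.228). Within arrays the log2 ratio of H2-K1 over H2-T23 changed by -0.31 ± 0.07 with the groups apart (exact permutation p = 0.1, adjusted p = 0.15).

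**Figure D3:**
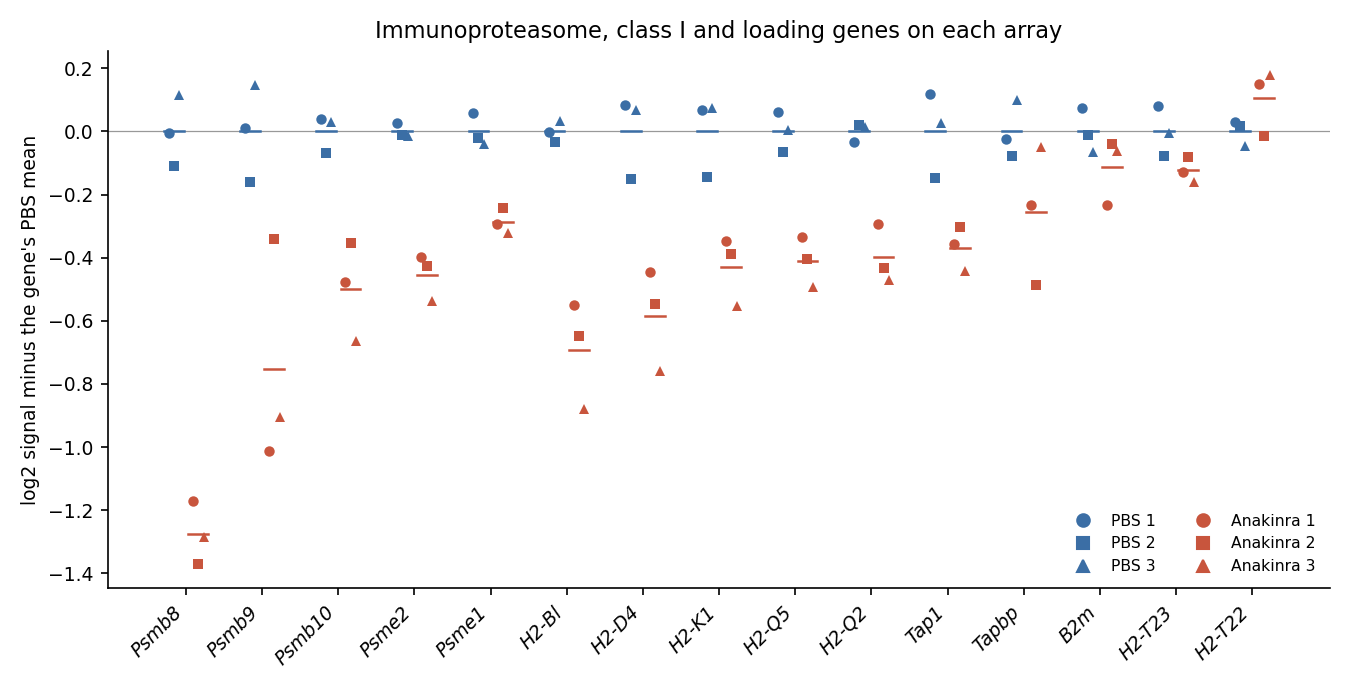
Log2 signal of 15 genes on each of the 6 arrays, less the gene's mean over the PBS arrays (vertical axis); each symbol is 1 array and each line a group mean. Psmb8 is apart from its PBS arrays by the widest gap of the genes drawn, while B2m, Tapbp and H2-T22 overlap.

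Of the loading machinery, all 4 genes were tested and none was called, with a median of -0.18. The groups were apart for 1 gene, against 13.8% of all genes apart and lower. At an unadjusted p under 0.05 (limma) 1 was lower, against 7.63% of all genes. B2m gave 27.4, 25.9 and 24.9 in PBS and 22.1, 25.3 and 24.9 in Anakinra. The groups overlapped, and the change was -0.11 ± 0.08 (adjusted p = 0.579). A second B2m probe changed by -0.13 ± 0.07 with the groups apart (limma adjusted p = 0.459 over all probes). A dim one changed by 0.02 ± 0.56 with overlap. Against the first B2m probe on the same array, H2-K1 changed by -0.32 ± 0.13 with overlap (exact permutation p = 0.2, adjusted p = 0.24). Tap1 gave 1.02, 0.849 and 0.959 in PBS and 0.734, 0.762 and 0.692 in Anakinra. Its groups were apart, with -0.37 ± 0.09 (adjusted p = 0.152). Tap2 changed by -0.09 ± 0.39, its highest and its lowest array both being Anakinra arrays, and by -0.50 without Anakinra replicate 2. The ratio of Tap1 over Tap2 changed by -0.28 ± 0.41 (exact permutation p = 0.7). Tapbp changed by -0.26 ± 0.13 with overlap (adjusted p = 0.418; -0.14 without Anakinra replicate 2), and its second probe by -0.50 ± 0.14 with the groups apart (adjusted p = 0.212 over all probes). Erap1, the aminopeptidase that trims peptides in the endoplasmic reticulum, was named Arts1 on the array and changed by -0.33 ± 0.10 (adjusted p = 0.200). Cd1d1, which presents lipids, changed by -0.06 ± 0.11 (adjusted p = 0.856).

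The 16 further genes of class I loading and class I-like molecules were all tested and none was called, with a median of 0.08. At an unadjusted p under 0.05 (limma), 2 were lower and 2 higher, against 7.63% and 8.49% of all genes. Tapbpl, the tapasin-related editor of class I peptides, changed by -0.38 ± 0.07 (adjusted p = 0.0782).

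Along chromosome 17 the estimates of genes next to each other varied. Apart from the ratio of Tap1 over Tap2 given above, differences between neighbours were not tested. In the order of their probes, Psmb9 changed by -0.75 ± 0.20, Tap1 by -0.37 ± 0.09, Psmb8 by -1.28 ± 0.09 and Tap2 by -0.09 ± 0.39. The class II genes on either side, H2-DMb1 and H2-Ab1, changed by 0.23 ± 0.10 and 0.39 ± 0.67. Without Anakinra replicate 2, on the same probes, these were -0.96, -0.40, -1.23, -0.50, 0.20 and -0.33. Psmb9 and Tap1 start from the shared stretch printed above and run in opposite directions. Psmb8 lies between both transporter genes, and it was the only one of the 6 that was called.

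**Figure D4:**
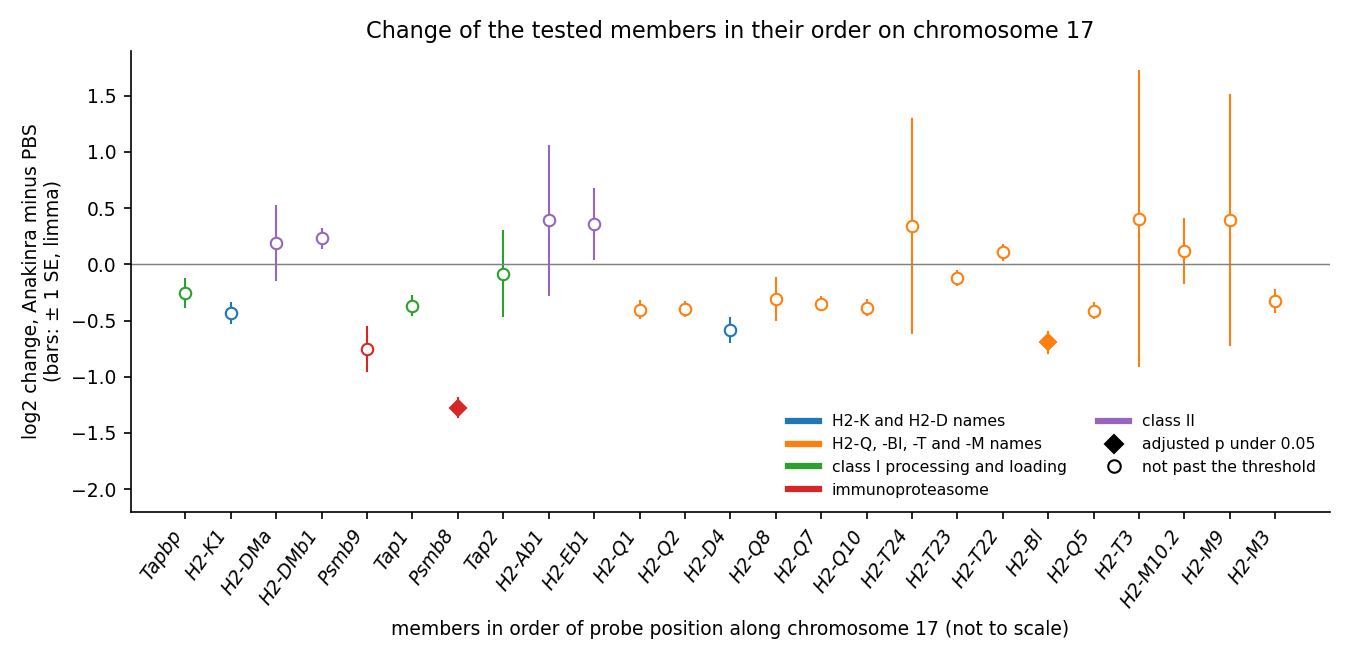
Log2 change (Anakinra minus PBS, vertical axis; bars ± 1 SE) of the 25 tested genes on chromosome 17 in the order of their probes, not to scale; filled diamonds have an adjusted p under 0.05. Psmb8 at -1.28 stands between Tap1 at -0.37 and Tap2 at -0.09, and the H2-Q names lie between -0.41 and -0.31.

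Class II genes were near background and gave no call. Of 10 genes 5 were tested, all 5 with overlapping groups and none at an unadjusted p under 0.05, and their median change was 0.23. Without Anakinra replicate 2 that median was -0.18. Cd74 gave 0.0643, 0.0561 and 0.0905 in PBS and 0.0376, 0.158 and 0.0470 in Anakinra. Anakinra replicate 2 was the highest array and the other 2 Anakinra arrays were the lowest. The change was -0.08 ± 0.59 (adjusted p = 0.976), and -0.71 without Anakinra replicate 2. H2-Ab1, the class II A beta chain, gave 0.0495, 0.0311 and 0.0509 in PBS and 0.0274, 0.152 and 0.0424 in Anakinra. Its change was 0.39 ± 0.67, and -0.33 on the same probe without Anakinra replicate 2. The probes of the gene disagreed: another changed by 1.87 ± 1.01, and since it then stood for H2-Ab1, the fit without Anakinra replicate 2 gave 2.08 for the gene and that within slide 1 gave 4.11. H2-DMa and H2-Eb1 changed by 0.19 ± 0.34 and 0.36 ± 0.32, both highest on Anakinra replicate 2, and by -0.18 and 0.05 without it. H2-DMb1 changed by 0.23 ± 0.10 (adjusted p = 0.339), with Anakinra replicate 3 as its highest array.

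The 12 genes not tested were H2-Aa, H2-DMb2, H2-Ea, H2-Oa, H2-Ob, H2-M1, H2-M10.1, H2-M10.3, H2-M10.4, H2-M10.5, H2-M10.6 and H2-M11. Of these, 11 were well above background on Anakinra replicate 2, the array with the largest share of spots above background, and 5 were above it on that array alone. H2-Ob, the beta chain of the H2-DM inhibitor H2-O, was above background on 0 PBS and 2 Anakinra arrays. The tested H2-M9, H2-T24 and H2-T3 were above it on all PBS arrays and on 1 or 2 Anakinra arrays, highest on Anakinra replicate 2, with SEs of 0.96 to 1.32. Ciita was above background on 1 array, in Anakinra, and was not tested. The 15 listed genes of class II processing and transcription (cathepsins, the RFX and NF-Y factors and others) gave 13 tested and 0 called. At an unadjusted p under 0.05 (limma), 3 were lower and 1 higher, against 7.63% and 8.49% of all genes. The one higher was Rfx5, a factor that binds class I and class II promoters, at 0.37 ± 0.11 (adjusted p = 0.215).

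**Figure D5:**
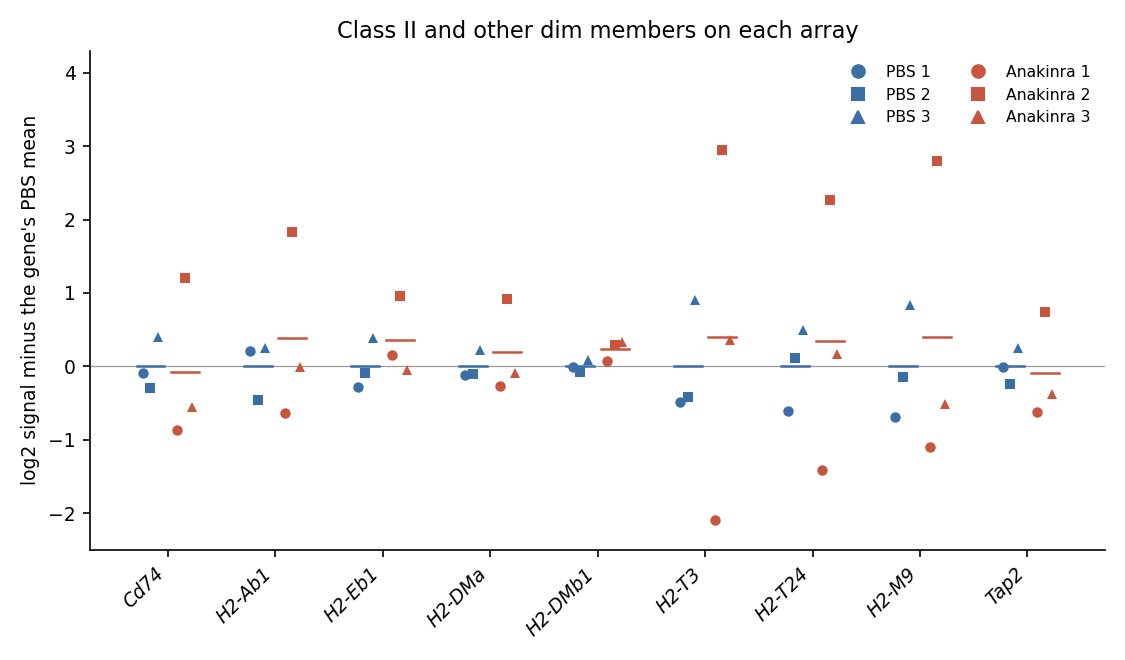
Log2 signal of the 5 tested class II genes, 3 dim class I genes and Tap2 on each array, less the gene's mean over the PBS arrays (vertical axis); each symbol is 1 array and each line a group mean. Anakinra replicate 2 (red squares) is the highest array for every gene drawn except H2-DMb1.

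Regulators upstream of these genes included the called changes outside the members. Of 23 listed genes 20 were tested, 3 were called lower and 0 higher, against 0.801% and 0.971% of all genes. The median change of the 20 was -0.12, with 15 negative and 5 positive. At an unadjusted p under 0.05 (limma), 8 were lower and 0 higher, against 7.63% and 8.49% of all genes. Several were near 0, among them Rela (-0.03 ± 0.08) and Irf9 (0.01 ± 0.11). Irf1, the interferon regulatory factor known to drive Psmb9 and Tap1, gave 4.44, 4.85 and 4.81 in PBS and 2.62, 2.09 and 2.42 in Anakinra. The groups were far apart, at -0.99 ± 0.10 or 1.99-fold lower (adjusted p = 0.0199, and 0.0618 with slide as a block). Nfkbia, an NF-kB inhibitor and itself an NF-kB target, gave 56.1, 49.4 and 48.1 in PBS and 22.02, 22.6 and 20.9 in Anakinra. It fell by 1.23 ± 0.09 on the log2 scale (adjusted p = 0.00733, and 0.0441 with slide as a block). Relb, an NF-kB subunit, gave 2.25, 1.99 and 1.99 in PBS and 1.39, 1.46 and 1.45 in Anakinra, a change of -0.54 ± 0.08 (adjusted p = 0.0448, and 0.0799 with slide as a block).

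No other regulator of that list was called. Ifngr2, a chain of the interferon gamma receptor, changed by -0.41 ± 0.07 with the groups apart (adjusted p = 0.0621). Ifng and Ifnb1 were each above background on 1 array and were not tested. Over all 71 pathway genes outside the members, 66 were tested, 3 were called lower and 0 higher, against 0.801% and 0.971% of all genes. Their median change was -0.06. The first of the 2 start regions of Irf1 held a GAS match 90 bases before the start and the other none of these motifs, and that of Nfkbia NF-kB matches at 113 and 28 bases and an ISRE match at 53 bases.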

How the data were processed

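The deposited scanner files, from Agilent Feature Extraction 9.5.3.1 per the file headers, give a processed signal intensity per spot on an array designed on mm8. The deposited log2 value table equalled log2 of that intensity plus a constant per array; how that constant was set is unknown. Controls and outlier-flagged spots were dropped, replicate spots averaged, and log2 signals were centred on each array's 75th percentile. Probes were named through RefSeq accessions, symbols or synonyms. A probe entered if well above background throughout PBS, Anakinra or both, and the brightest such probe stood for a gene. limma 3.58.1 (R 4.3.3) was fitted to all 16472 genes, without a block. The scripts were tested on simulated data. Alternatives covered scaling, background correction, filter, value source, probe choice, slide and replicate blocks, array weights and each array left out; tests of single probes, ratios and the members without 9 class I names were added later. Every tested member may be named, with values per array for called genes, for examples of each class and for pathway genes that were called. The value of 1 listed regulator is not reported here. The members and lists were chosen with earlier results of these data known. Arrays have no read depth, and 3 arrays per group limit the precision.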

Additional observations from a re-analysis of the deposited data

How the results depend on the processing

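Among the members, 3 were called lower; 0 were with median scaling, 0 without a filter on dim probes, 8 with probes above background on all 6 arrays, 1 with slide as a block, 0 within either slide, and 0 to 2 with an array left out. At an unadjusted p under 0.05 (limma), 4 of 31 members were lower with median scaling and 0 higher, against 433 and 89 of 16472 genes. Without the filter 15 of 43 were lower and 1 higher, against 779 and 2699 of 27573 genes. With the replicate block 14 of 31 were lower and 0 higher, against 748 and 1024 of 16472 genes. Each slide leaves 1 array in a group. The median change of the members was -0.31 within slide 1 and -0.21 within slide 2, and that of all genes -0.04 and 0.09. None was called higher, except 0 to 1 with an array left out. That 1 was H2-Ob without Anakinra replicate 3, a gene that the main filter leaves out. It then passed the filter only through the Anakinra arrays, where it was high. Its PBS values were near the floor (0.0038 to 0.0046), so no conclusion is drawn from that call. In the pathway lists, 3 genes were called lower; 0 were with median scaling, 0 without the filter, 5 with all 6 arrays above background, 1 with slide as a block, 0 within either slide and 0 to 2 with an array left out. None there was called higher, against 1 (Blmh) with quantile scaling, 1 (Blmh) with all 6 arrays above background, and 0 to 1 (Fcgrt, without Anakinra replicate 1). Over all genes, 132 were called lower and 160 higher. Median scaling gave 49 and 8, no filter 29 and 7, all 6 arrays above background 241 and 338, slide as a block 41 and 23, either slide alone 0 and 0, and an array left out 7 to 137 and 1 to 97. The cause of these differences was not tested. Correlations of same-numbered deviations were 0.407, -0.493 and -0.212, so replicate numbers showed no clear pairing of the samples. With 3 arrays per group spread over both slides, this check cannot exclude a pairing. With the replicate block 0 genes were called lower and 0 higher over all genes, the members (0 and 0) and the pathway lists (0 and 0). Psmb8 kept its direction in all 18 alternatives and its call in 11, H2-Bl in 18 and 5, and Psme2 in 18 and 4. No called value changed sign. Signals near background limit what can be said of the class II genes.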
